A study of Mus musculus with 23 samples.

Results

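The miR-7 family was followed by small RNA sequencing of 23 mouse retinas, 1 library each, collected on postnatal day 90. Its members were chosen by name, as the mature rows of the loci mir-7a-1, mir-7a-2 and mir-7b, which are 3 of the 903 mature rows in the deposited counts. The retinas came from P23H+/- KI mice, heterozygous carriers of a rhodopsin allele that misfolds and causes retinitis pigmentosa, and from wild-type (WT) C57B mice. P23H+/- KI mice received nanoparticles with the genomic form of the human rhodopsin gene (human gRHO, 3 retinas of 2 mice) or of the mouse gene (mouse gRho, 11 retinas of 7 mice), or saline (2 retinas of 1 mouse), or were left without injection (5 retinas of 3 mice). The 2 untreated WT retinas were counted as 2 mice. All injected and uninjected P23H mice carry the same knock-in allele, and the labels give no dose, route or day of injection.

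miR-7 is an ancient microRNA, conserved from flies to mammals and abundant in neurons and in hormone-secreting cells. In mouse brain its level is held down by the long noncoding RNA Cyrano, which pairs with it and triggers its destruction through the ubiquitin ligase ZSWIM8, and its targets include the circular RNA Cdr1as, which carries many sites for it. A microRNA recognises targets mainly through its seed, bases 2 to 8 from the 5′ end.

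The mature sequences from RefSeq (build GRCm38.p6) are shown because they set what the 3 rows can tell apart. All 3 loci matched, and capitals mark the seed:
mmu-miR-7a-5p: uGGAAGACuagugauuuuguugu
mmu-miR-7b-5p: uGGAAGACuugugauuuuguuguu
mmu-miR-7a-1-3p: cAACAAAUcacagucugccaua
mmu-miR-7a-2-3p: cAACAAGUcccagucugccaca
mmu-miR-7b-3p: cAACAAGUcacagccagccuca
The 5p product is identical at mir-7a-1 and mir-7a-2. miR-7b-5p differs from it by A10U (miR-7a base first, counted from 1 at the 5′ end) within the 23 bases compared, and is 1 base longer. The seed GGAAGAC belongs to these 2 names alone among 1679 mature mouse names in the RefSeq table. The 3p products differ more. The miR-7a-2 and miR-7b 3p products share the seed AACAAGU, while miR-7a-1-3p has AACAAAU. No deposited row states an arm, and a value therefore cannot be assigned to the 5p or the 3p product. A 5p read could come from either miR-7a locus, which makes the split between mir-7a-1 and mir-7a-2 uncertain.

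The hairpins place both arms, in capitals, on either side of the loop:
mir-7a-1 hairpin: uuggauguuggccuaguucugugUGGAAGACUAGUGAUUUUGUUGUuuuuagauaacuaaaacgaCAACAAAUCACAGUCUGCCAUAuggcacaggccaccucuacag
mir-7a-2 hairpin: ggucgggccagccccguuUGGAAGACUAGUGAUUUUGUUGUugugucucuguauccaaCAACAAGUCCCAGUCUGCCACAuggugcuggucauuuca
mir-7b hairpin: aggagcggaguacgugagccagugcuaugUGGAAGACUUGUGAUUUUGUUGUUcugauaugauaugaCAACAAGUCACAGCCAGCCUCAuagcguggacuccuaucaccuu
In RefSeq the mir-7a-1 hairpin lies at chr13:58392779-58392886 on the minus strand, inside an intron of all 12 overlapping GENCODE M21 transcripts of Hnrnpk, an RNA-binding protein gene read in the same direction. The mir-7a-2 hairpin at chr7:78888277-78888373 (plus strand) overlaps no other annotated gene, and the nearest is Aen, 7481 bases away. The mir-7b hairpin at chr17:56242988-56243098 (plus strand) overlaps no other gene either, and a lincRNA lies 183 bases away. These coordinates locate the loci and not the reads, since the build behind the counts is not stated in the sources used here.

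The mir-7a-1 row carried most reads of the family. Its median over the 23 libraries was 608 reads, or 65.7 CPM (counts scaled to the library's total of mature miRNA reads), which placed it 65th of 903 mature rows. The mir-7a-2 row had a median of 46 reads (4.64 CPM, place 192) and the mir-7b row 30 reads (2.68 CPM, place 223). All 3 rows had reads in every library. With so few reads, counting error alone was large for mir-7a-2 and mir-7b, as the bars in the plot of levels by group show (95% exact binomial intervals, which cover counting error only).

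Libraries held 5968388 to 16048954 mature miRNA reads. Rows of neurons (8 of 11 listed rows summed, mir-9 and mir-124 among them) and of photoreceptors (mir-183, mir-96 and mir-182) were above 0 in every library. The neuron rows mir-128-2, mir-137 and mir-138-1 jump between 2 levels across libraries and were left out. Most of the neuron sum came from mir-9-1, mir-9-2 and mir-9-3 (means over mice 3174, 3173 and 2498 CPM), copies that can share reads. The 3 photoreceptor rows summed to 699 to 821 CPM in human gRHO, 52.9 to 943 in mouse gRho, 691 to 769 in saline, 198 to 805 in uninjected and 306 to 1101 CPM in WT retinas. Of the 23 libraries, the right eye of mouse gRho mouse 1 and the left eye of uninjected mouse 2 lay at least 2-fold below the median of all libraries for both the neuron and the photoreceptor rows, and the fold changes and group means they enter are given with them, and without them where that moved a value by over 1.5 times, turned its sign or changed the order of the groups. In these bulk libraries, fewer cells of a type and less RNA per cell cannot be told apart.

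mir-7a-1 measured 69.8, 62.4 and 84.9 CPM in human gRHO retinas. In mouse gRho retinas it ranged from 22.9 over a median of 63.4 to 79.9 CPM. It measured 60.4 and 68.8 CPM in saline retinas, 72.0, 48.4, 27.9, 71.5 and 66.9 CPM in uninjected P23H retinas, and 69.4 and 29.97 CPM in WT retinas. The groups overlapped, and 3 libraries from 3 groups lay apart at the low end, namely the right eye of mouse gRho mouse 1 (22.9), uninjected mouse 2 (27.9) and WT mouse 2 (29.97 CPM). Every other library had 48.4 CPM or more. Other rows fell further below their own medians in these low libraries. Among 257 tested rows with a median of at least 10 reads, mir-7a-1 was 41st from the lowest in the mouse gRho library (0.349-fold its median). It was 29th in uninjected mouse 2 (0.425-fold) and 78th in WT mouse 2 (0.456-fold). By the mean over mice the order was human gRHO (75.5), saline (64.4, 1 mouse), mouse gRho (59.3), uninjected (52.5) and WT (49.7 CPM), and no neighbours in it differed beyond their spread. The order rested on the libraries poor in retinal miRNAs. Over the other 21 it was human gRHO (75.5), uninjected (64.8), saline (64.4), mouse gRho (63.0) and WT (49.7 CPM).

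mir-7a-2 measured 4.64, 3.42 and 7.06 CPM in human gRHO retinas. It ranged from 0.712 over a median of 4.03 to 9.42 CPM in mouse gRho retinas. It stood at 5.35 and 6.68 CPM in saline retinas, at 7.28, 8.97, 1.15, 2.90 and 3.93 CPM in uninjected P23H retinas, and at 8.60 and 2.24 CPM in WT retinas. The 3 libraries that were lowest for mir-7a-1 were also the lowest for mir-7a-2, with 7 reads in the right eye of mouse gRho mouse 1, 8 in uninjected mouse 2 and 36 in WT mouse 2.

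mir-7b measured 4.37, 2.61 and 3.33 CPM in human gRHO retinas. In mouse gRho retinas it ranged from 1.76 over a median of 2.78 to 34.0 CPM. It measured 2.68 and 3.39 CPM in saline retinas, 2.89, 2.45, 0.716, 1.58 and 2.03 CPM in uninjected P23H retinas, and 4.25 and 0.561 CPM in WT retinas. Uninjected mouse 2 (5 reads) and WT mouse 2 (9 reads) were the lowest here too. The right eye of mouse gRho mouse 1 went the other way, with 334 reads (95% exact interval 30.4 to 37.8 CPM) where no other library had more than 49. That is 12.7-fold the row's median, the largest such ratio in that library among 257 tested rows with a median of at least 10 reads. The 257 leave out the rows set aside for jumping between 2 levels. In other libraries, other kept rows reached similar ratios. mir-381 stood at 20.2-fold and mir-488 at 14.6-fold in WT mouse 2, and mir-1224 at 12.3-fold in the left eye of mouse gRho mouse 1. Of the 337 mature rows that reached 30 reads in any library, 65 jump between 2 levels across libraries. They were set aside by a rule on gaps between sorted values (at least 3.5 log2 units, or at least 2 with 2 or more libraries on each side). Rows that stayed below 30 reads were not screened for jumps. The mir-7b row, whose largest gap of 2.82 sets the right eye of mouse gRho mouse 1 alone apart, was kept under that rule. Whether its value in this library is such a jump was not tested. The same library was highest of the 23 in the summed rows of surface epithelium, lens and cornea (298 CPM), of leukocytes (66.8 CPM) and of vessels (2888 CPM), and the part of these in the mir-7b value was not tested.

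**Figure D1:**
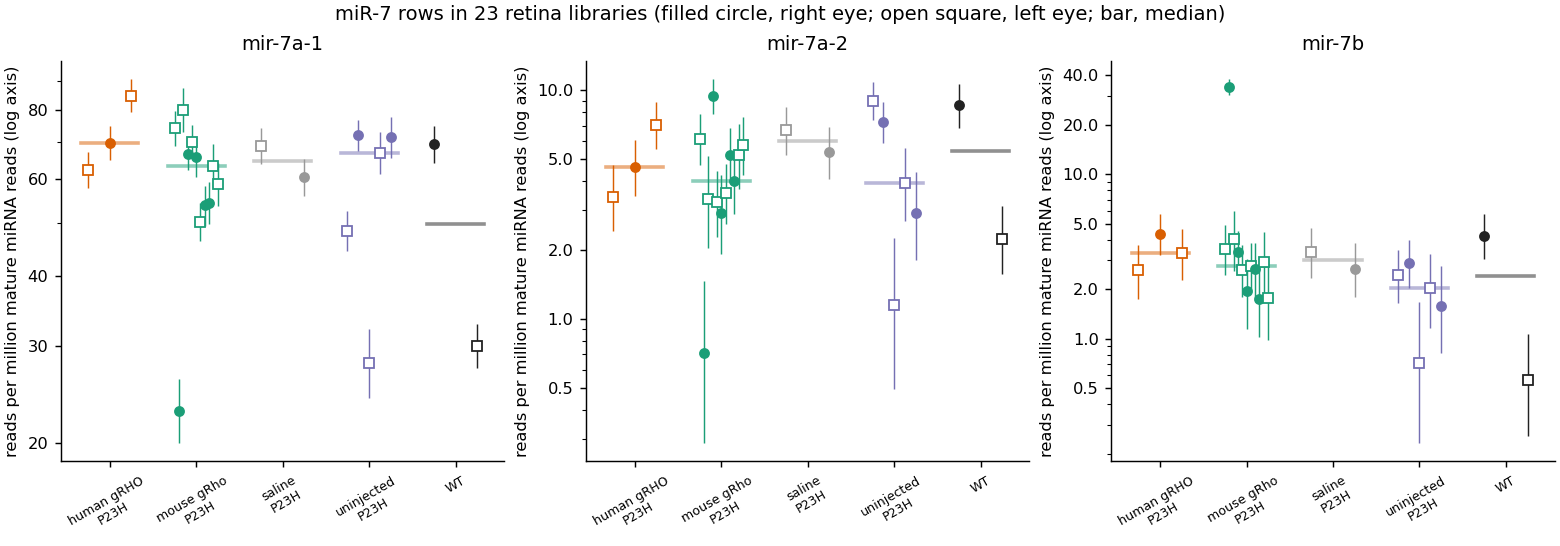
CPM (log axes) of the mir-7a-1, mir-7a-2 and mir-7b rows in 23 libraries, by group, with filled circles for right eyes, open squares for left eyes, 95% exact binomial counting intervals and a bar at the group median. The groups overlap in all 3 panels, and 1 mouse gRho library stands at 22.9, 0.712 and 34.0 CPM.

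Uninjected P23H retinas were set against WT retinas to ask what differs with the rhodopsin mutation. Averaged over mice, mir-7a-1 measured 52.5 ± 21.7 CPM in uninjected P23H (SD, n = 3) and 49.7 ± 27.9 CPM in WT retinas (SD, n = 2). mir-7a-2 measured 4.23 ± 3.55 CPM in uninjected P23H and 5.42 ± 4.50 CPM in WT retinas, and mir-7b 1.73 ± 0.98 CPM in uninjected P23H and 2.41 ± 2.61 CPM in WT retinas. The spread within each group was larger than the difference between them. Over the 21 libraries that are not poor in retinal miRNAs the order of the groups turned for mir-7a-2. It averaged 5.77 ± 3.31 CPM there in uninjected P23H (SD, n = 2) and 5.42 ± 4.50 CPM in WT retinas (SD, n = 2). At an adjusted p of 0.05, edgeR's quasi-likelihood test called 0 of the 3 rows, DESeq2 also called 0, and before adjustment 0 were under 0.05. Over all 382 rows tested, edgeR called 6 (1.57%) and DESeq2 called 14, and 63 had an unadjusted edgeR p under 0.05. With edgeR the log2 fold changes were -0.28 for mir-7a-1 (SE 0.35, adjusted p = 0.681), -0.57 for mir-7a-2 (SE 0.64, adjusted p = 0.652) and -0.65 for mir-7b (SE 0.99, adjusted p = 0.756). The median over all rows was -0.09. The fit scales each mouse by TMM factors, which ran from 0.733 in WT mouse 2 to 1.26 in uninjected mouse 3, and the sign for mir-7a-1 turned to 0.09 without them. All 3 signs rested on WT mouse 1. Without it, which leaves the low WT library alone, mir-7a-1 stood at 0.27, mir-7a-2 at 0.44 and mir-7b at 1.16, and without WT mouse 2 they stood at -0.58, -1.13 and -1.39. Without uninjected mouse 2, mir-7a-1 was at 0.0043, mir-7a-2 at -0.18 and mir-7b at -0.35. Over the 21 libraries that are not poor in retinal miRNAs they were at 0.034, -0.13 and -0.30.

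Mouse gRho was set against no injection to ask whether treatment changed miR-7. mir-7a-1 measured 59.3 ± 8.3 CPM in mouse gRho (SD, n = 7 mice) and 52.5 ± 21.7 in uninjected retinas (SD, n = 3). It differed by 0.36 on the log2 scale (SE 0.27, edgeR adjusted p = 0.913), by 0.045 without uninjected mouse 2 and by 0.14 over the 21 libraries that are not poor in retinal miRNAs. Over those 21, mir-7a-1 averaged 63.0 ± 8.4 CPM in mouse gRho and 64.8 ± 6.2 in uninjected retinas. mir-7a-2 measured 4.78 ± 1.56 CPM in mouse gRho and 4.23 ± 3.55 in uninjected retinas and differed by 0.26 (SE 0.49, adjusted p = 0.982). The sign turned without uninjected mouse 2 (-0.16) and over the 21 libraries (-0.055), where mir-7a-2 averaged 5.17 ± 1.51 CPM in mouse gRho and 5.77 ± 3.31 in uninjected retinas. mir-7b measured 4.83 ± 6.14 CPM in mouse gRho and 1.73 ± 0.98 in uninjected retinas and differed by 1.52 (SE 0.79, adjusted p = 0.913). That value leaned on mouse gRho mouse 1, and it was 0.65 (SE 0.50, edgeR adjusted p = 0.8085) without this mouse. Over the 21 libraries it was 0.38, with 2.66 ± 0.75 CPM in mouse gRho and 2.24 ± 0.61 in uninjected retinas. Over all 382 rows 0 were called (0%) with edgeR, 18 had an unadjusted p under 0.05, and 0 of the 3 miR-7 rows were among those 18. DESeq2 called 0 of the 3 as well.

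Human gRHO retinas had 75.5 ± 13.3 CPM of mir-7a-1 (SD, n = 2 mice), against 52.5 ± 21.7 in uninjected retinas. The log2 fold change was 0.70 (SE 0.34), with a 95% interval from -0.03 to 1.42. Its unadjusted p of 0.058 was the smallest of the miR-7 rows in any comparison, and the adjusted p was 0.93. Over the 21 libraries it was 0.35 (edgeR adjusted p = 0.997), and without uninjected mouse 2 it was 0.38. mir-7a-2 differed by 0.45 (SE 0.63) and mir-7b by 1.06 (SE 0.97), with edgeR adjusted p-values of 0.934 and 0.93, and over the 21 libraries by -0.013 and 0.68. Without uninjected mouse 2, mir-7a-2 differed by 0.038. Saline, the control for injection, differed from no injection by 0.58 (SE 0.43) for mir-7a-1, 0.68 (SE 0.77) for mir-7a-2 and 0.99 (SE 1.17) for mir-7b, each with an edgeR adjusted p of 0.91. Without uninjected mouse 2 these values were 0.24 for mir-7a-1, 0.24 for mir-7a-2 and 0.64 for mir-7b, and over the 21 libraries 0.24, 0.23 and 0.63. Saline is 1 mouse, assumed to vary like the others. These 3 comparisons share the uninjected mice, whose lowest library (27.9 CPM of mir-7a-1) enters each of them, and 0 of 382 rows were called (0%) for human gRHO and for saline. Neither edgeR nor DESeq2 called a miR-7 row (0 of 3 in each), and before adjustment 0 of the 3 were under 0.05, beside 10 of all rows for human gRHO and 13 for saline.

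**Figure D2:**
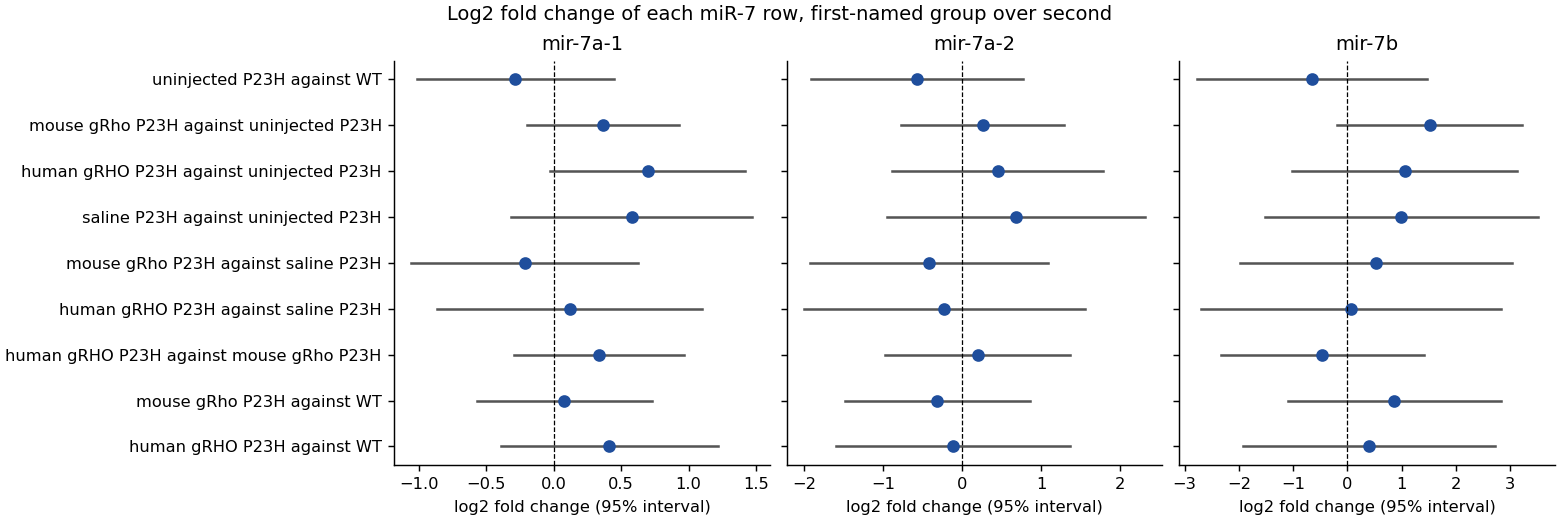
Log2 fold changes of the 3 miR-7 rows (points) with 95% intervals (lines) in 9 comparisons from 1 edgeR fit, first-named group over second. All intervals cross 0, and those of mir-7b are the widest.

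Among injected groups, human gRHO differed from mouse gRho by 0.33 for mir-7a-1 (SE 0.30, interval -0.29 to 0.96), 0.19 for mir-7a-2 (SE 0.56) and -0.46 for mir-7b (SE 0.87), each with an edgeR adjusted p of 0.997. These intervals do not show that the constructs act alike. Without mouse gRho mouse 1 the sign for mir-7b turned, to 0.38, and so did those of mouse gRho against saline (-0.31) and against WT (-0.028). Against saline, mouse gRho differed by -0.22 (SE 0.40), -0.42 (SE 0.72) and 0.53 (SE 1.17) for mir-7a-1, mir-7a-2 and mir-7b, and human gRHO by 0.12 (SE 0.47), -0.23 (SE 0.84) and 0.07 (SE 1.29). Against WT, mouse gRho differed by 0.08 (SE 0.31), -0.32 (SE 0.56) and 0.87 (SE 0.91), and human gRHO by 0.41 (SE 0.38), -0.12 (SE 0.70) and 0.41 (SE 1.08), in the same order. Over the 21 libraries that are not poor in retinal miRNAs, human gRHO differed from mouse gRho by 0.21 for mir-7a-1, 0.042 for mir-7a-2 and 0.30 for mir-7b. Mouse gRho differed there from saline by -0.10 for mir-7a-1 and -0.25 for mir-7b, and from WT by 0.17 for mir-7a-1, -0.19 for mir-7a-2 and 0.083 for mir-7b. In these 5 comparisons edgeR and DESeq2 each called 0 of the 3 rows, and before adjustment 0 were under 0.05. Of all 382 rows, edgeR called 3.14% for mouse gRho against WT and 0% in the others. DESeq2 called 18 rows for mouse gRho against WT, 5 for human gRHO against WT and 0 in the others. Before adjustment (edgeR), mouse gRho and human gRHO had 69 and 38 rows under 0.05 against WT, and 3 and 5 against saline. Human gRHO against mouse gRho had 11.

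In every library but 1, mir-7a-1 held most of the family's reads and mir-7b had a small share. mir-7a-1 made up 80.9% to 94.1% of the family's reads in 22 libraries, mir-7a-2 3.82% to 15.01% and mir-7b 1.71% to 5.54%. In the right eye of mouse gRho mouse 1 the shares were 39.8% for mir-7a-1, 1.24% for mir-7a-2 and 59.0% for mir-7b. That library had 0.674 mir-7a-1 reads per mir-7b read, and the 22 others had 16.0 to 53.4. The summed level of the family there was 57.6 CPM, inside the range of the others (29.8 to 95.3 CPM).

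**Figure D3:**
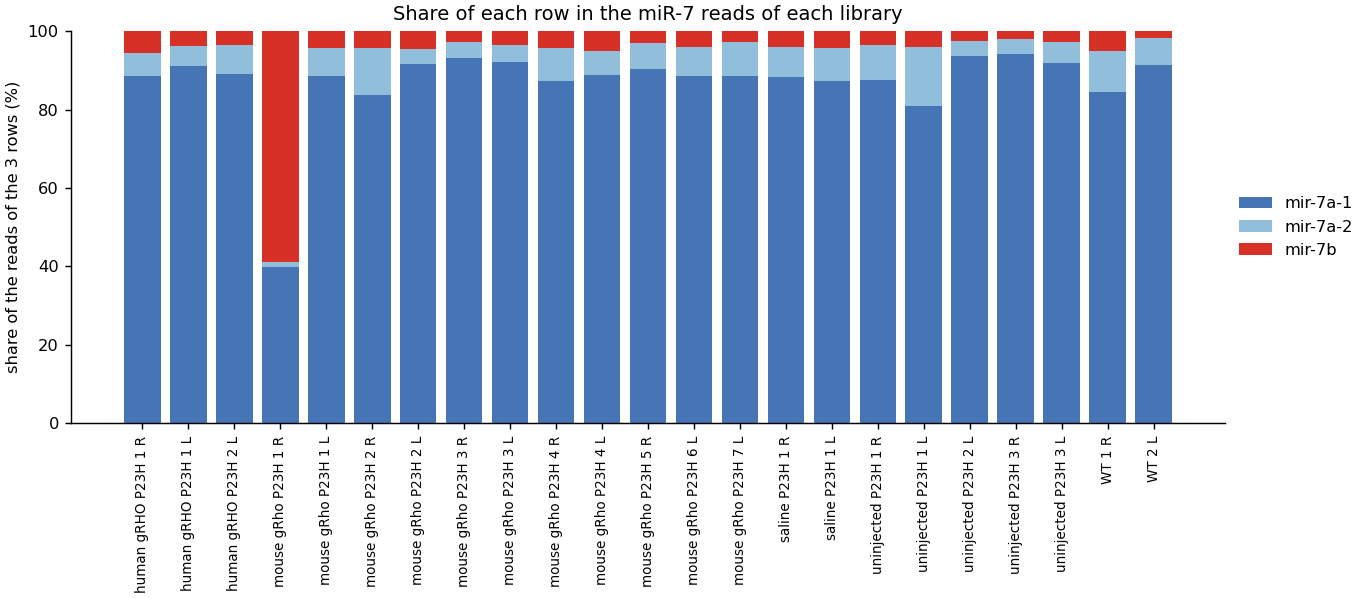
Share of the reads of the 3 miR-7 rows (percent) that belongs to each row, 1 bar per library, R and L for right and left eyes, numbers for mice. mir-7b takes 59.0% in the right eye of mouse gRho mouse 1 and at most 5.54% in the other 22 libraries.

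Both eyes were sequenced in 8 mice, which allows a comparison within a mouse. mir-7a-1 was higher in the right eye in 4 mice and in the left in 4, and the right-over-left log2 difference was -0.23 (SE 0.22, edgeR with a term for the mouse, adjusted p = 0.952). It was -0.23 (SE 0.40) for mir-7a-2 and 0.23 (SE 0.39) for mir-7b, each higher in the right eye in 3 of 8 mice, with the same adjusted p. Of the 3 rows 0 passed and 0 had an unadjusted p under 0.05, beside 0 of 330 rows called (0%) and 9 under 0.05 before adjustment. In mouse gRho mouse 1 the right eye had 22.9 CPM of mir-7a-1 and the left 74.1, and 34.0 CPM of mir-7b against 3.52, a 9.65-fold difference. Without this mouse the fitted difference was -0.015 for mir-7a-1, 0.11 for mir-7a-2 and -0.12 for mir-7b, with the sign turned for mir-7a-2 and mir-7b. In the other 7 mice the eyes differed by up to 0.57 for mir-7a-1, 1.49 for mir-7a-2 and 0.74 for mir-7b (log2 of the CPM ratio, in size).

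**Figure D4:**
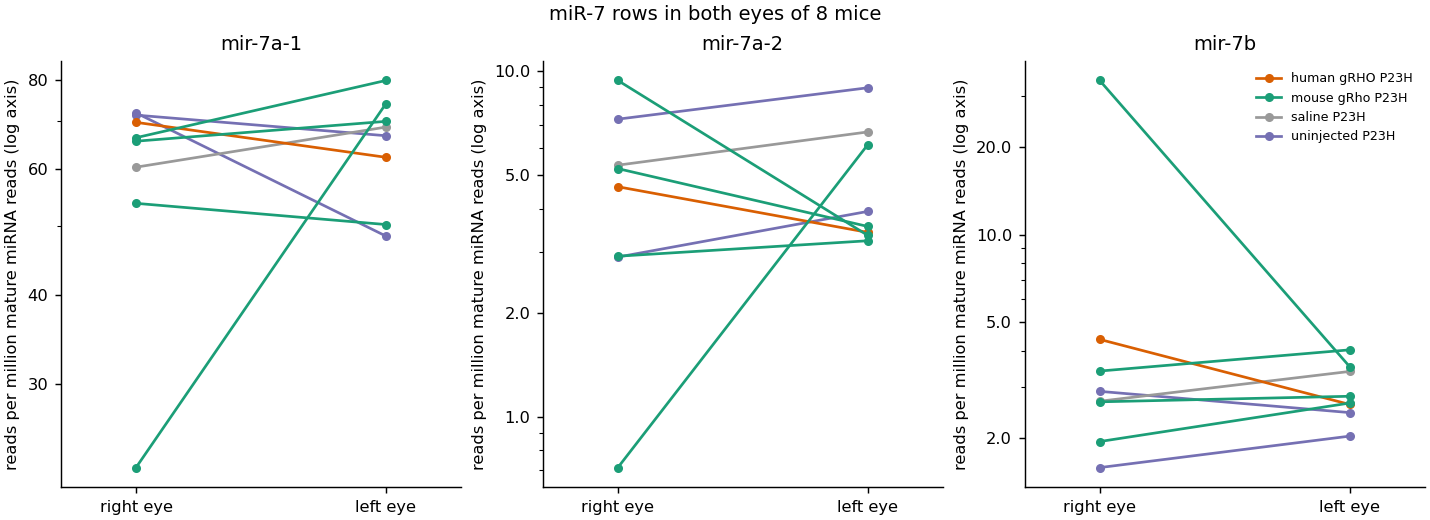
CPM (log axes) of the 3 miR-7 rows in the right and left eyes of 8 mice, 1 line per mouse, coloured by group. The line of mouse gRho mouse 1 rises to the left eye for mir-7a-1 and mir-7a-2 and falls steeply for mir-7b (34.0 CPM right, 3.52 left).

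The rows whose order over the 15 mice was most like that of mir-7a-1 were mir-183 of the photoreceptor cluster (Spearman rho 0.88), mir-181a-1 (0.80), mir-212 (0.80), mir-129-2 (0.79) and mir-129-1 (0.78), out of 125 candidate rows averaging 10 CPM or more. For mir-7a-2 they were mir-181b-1 (0.77), mir-370 (0.74) and the copies mir-9-3, mir-9-1 and mir-9-2 (0.72, 0.69 and 0.69, which can share reads). For mir-7b they were mir-433 (0.71), mir-181c (0.64), mir-183 (0.63), mir-362 (0.57) and mir-370 (0.55). These are the highest of many values over mice, some of which share low neuron and photoreceptor rows, and they are a description. Within the family, rho was 0.57 for mir-7a-1 with mir-7a-2, 0.52 for mir-7a-1 with mir-7b and 0.58 for mir-7a-2 with mir-7b.

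Over the 23 libraries, some of them from the same mouse, mir-7a-1 ranked with the summed photoreceptor rows at a rho of 0.85, and at 0.81 over the 21 that are not poor in retinal miRNAs. In the same 2 sets the values were 0.48 and 0.31 for mir-7a-2, and 0.46 and 0.62 for mir-7b. The 3 libraries lowest in mir-7a-1 held 52.9 (right eye of mouse gRho mouse 1), 198 (uninjected mouse 2) and 306 CPM (WT mouse 2) of the photoreceptor rows, places 23, 22 and 20 of 23. Their neuron rows summed to 2615, 4578 and 6156 CPM in that order, the lowest 3 of 23. For other tissues, WT mouse 2 was at place 20 for vessels and red blood cells and 18 for leukocytes. It was at 23 for muscle, for pigment epithelium and Mueller glia, and for surface epithelium, lens and cornea. The low mouse gRho and uninjected libraries ranked 1 and 2 for vessels, 1 and 5 for leukocytes, and 1 and 4 for surface epithelium. In the same order they ranked 9 and 5 for red blood cells, 6 and 1 for muscle, and 10 and 14 for pigment epithelium. The part of tissue composition in the low miR-7 values was not tested.

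**Figure D5:**
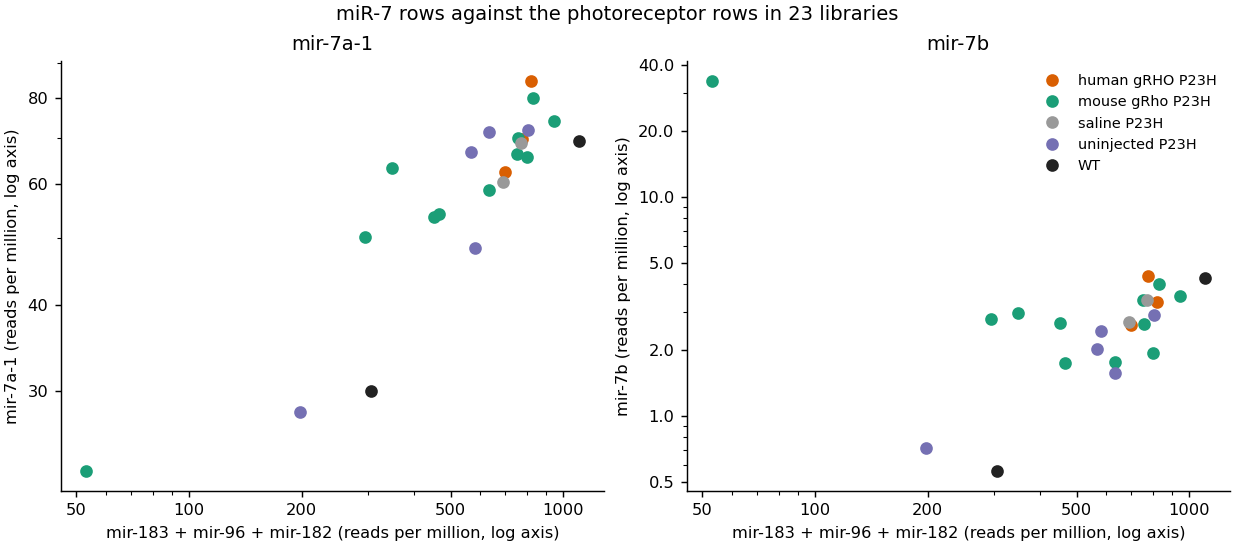
CPM of mir-7a-1 (left) and mir-7b (right) against the summed CPM of mir-183, mir-96 and mir-182 in 23 libraries (log axes), coloured by group. mir-7a-1 is lowest where the photoreceptor rows are lowest (rho 0.85), and the library with 52.9 CPM of photoreceptor rows has the highest mir-7b (34.0 CPM).

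The deposited table also has a precursor class, with a row for mir-7a-1 and for mir-7b, and how its reads were told from mature ones is not given in the sources used here. The mir-7a-1 precursor row held 3 to 34 reads per library, 330 in all. In mice it measured 1.15 ± 0.50 CPM in mouse gRho (SD, n = 7), 1.59 ± 0.32 in uninjected P23H (SD, n = 3) and 2.01 ± 0.38 CPM in WT retinas (SD, n = 2). Human gRHO retinas had 1.96, 1.26 and 0.605 CPM and saline retinas 1.16 and 1.26 CPM. Both WT mice (2.28 and 1.74 CPM) lay above all 7 mouse gRho mice (0.310 to 1.71 CPM). That held only with the libraries poor in retinal miRNAs: over the other 21 the mouse gRho mice ran from 0.310 to 2.41 CPM, past both WT mice. The exact two-sided permutation test of mouse gRho against WT gave p = 0.0556, the smallest that 36 splits allow, and 0.222 when adjusted over 6 tests of this row. Against uninjected mice the exact permutation test gave p = 0.2 for mouse gRho. Per 100 mature mir-7a-1 reads, the precursor row held 1.93 reads in mouse gRho, 3.34 in uninjected and 4.55 in WT mice (means). The exact permutation test gave p = 0.1 for mouse gRho against uninjected and p = 0.111 against WT. Highest of the uninjected mice was mouse 2 (4.62, from 9 precursor reads), whose library is poor in retinal miRNAs. Uninjected mice 1 and 3 had 3.17 and 2.25. WT mouse 2 and uninjected mouse 2, low in mature mir-7a-1, had 1.74 and 1.29 CPM of its precursor, against a median of 1.27. The library lowest in mature mir-7a-1, the right eye of mouse gRho mouse 1, had 0.814 CPM (8 reads), place 19 of 23. The mir-7b precursor row held 9 reads in all, with 0 in 17 libraries, the library with 334 mature mir-7b reads among them.

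Other members of the circuits around miR-7 were read from a short list. mir-671, which directs the cleavage of Cdr1as, had 11.3 ± 2.0 CPM in mouse gRho (SD, n = 7 mice), 15.9 ± 1.6 in uninjected P23H (SD, n = 3) and 9.40 ± 4.30 CPM in WT retinas (SD, n = 2). It differed by -0.30 between mouse gRho and uninjected retinas (log2, SE 0.20, edgeR adjusted p = 0.913). mir-375, abundant with miR-7 in pancreatic islets, had 388 ± 260 CPM in mouse gRho, 627 ± 314 in uninjected P23H and 263 ± 11 CPM in WT retinas, and differed by 0.73 between uninjected and WT (log2, SE 0.61, edgeR adjusted p = 0.54). The lowest uninjected mouse had 274 CPM. Libraries of at least 3% rRNA held high values, among them uninjected mouse 2 (730), the right eye of uninjected mouse 3 (1160) and mouse gRho mouse 6 (909 CPM). The part of rRNA in these values was not tested. Of the miRNAs that, like miR-7, need ZSWIM8 for their decay, mir-29b-1, mir-29b-2, mir-322 and mir-335 were tested, and mir-503, whose row jumped between levels, was not. Of the 6 listed rows tested, 0 were higher and 1 was lower in mouse gRho than in WT, beside 3.14% of all rows, and 0 passed in the other 8 comparisons (edgeR). The lower row was mir-335 (log2 fold change -1.71, SE 0.33, edgeR adjusted p = 0.00684). It had 146 ± 37.8 CPM in mouse gRho (SD, n = 7 mice) and 380 ± 196 CPM in WT retinas (SD, n = 2). Without WT mouse 2 it stood at -0.73. The median log2 fold change of the 6 rows was 0.17 in mouse gRho against WT and -0.01 over all rows. Uninjected P23H retinas had 177 ± 45.9 CPM of mir-335 (SD, n = 3). They differed from WT by -1.60 (SE 0.41, edgeR adjusted p = 0.0569), and human gRHO differed from WT by -1.20 (SE 0.46, edgeR adjusted p = 0.329). Between mouse gRho and uninjected retinas mir-335 differed by -0.11 (SE 0.31, edgeR adjusted p = 0.982).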

How the data were processed

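The authors deposited whole-number read counts per miRNA locus and class, and a table of reads per library and alignment class. The submitters' processing notes name DESeq2 without a version. The sources used here state no aligner, annotation or build. The 903 mature rows hold 10.4% to 19.5% of the mature miRNA reads that table lists, and the listed totals served as library sizes (5968388 to 16048954 per library). CPM was computed here from the deposited counts over these totals. Mouse and eye were read from titles, an inference, and eyes of a mouse were summed to 15 mice. The p-values reflect only how these sums vary, which may be technical, and groups may also be cages.

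All groups entered 1 edgeR 4.0.16 quasi-likelihood fit (R 4.3.3) with TMM factors, over 382 mature rows that reached 10 counts in 3 or more mice, p-values adjusted by Benjamini-Hochberg over all rows (threshold 0.05). Rows that jump between 2 levels (65 of the 337 that reached 30 reads in any library) were set aside, and rows below 30 reads were not screened. DESeq2 1.42.0 was an alternative. The test was checked on simulated counts with large changes and the same spread in all rows, for mouse gRho against uninjected mice only. That check does not give its power for small changes or in the smaller groups. Members were taken by name, and the rows most like a member are the 5 with the highest Spearman rho. Members, lists and the rule on jumps were chosen with earlier results of these data known. Of the matrix, 0 columns were left unused.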

Additional observations from a re-analysis of the deposited data

Results flagged for a closer look

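In the mouse gRho group (7 mice), 1 mouse lay apart from the others in 3 quantities, each by a gap to its nearest neighbour that took more of the group's range than the 95% limit of 0.568. Chance flags about 1 in 20 groups, and the 3 quantities share their reads. The rule was also run on the other miR-7 rows and family quantities over these mice, precursor rows included. It was run on the rows over the uninjected libraries as well, and nothing further was flagged. The mouse gRho libraries were too many for the limits used and were not screened singly. Mouse gRho mouse 1 had 18.67 CPM of mir-7b over both eyes (gap 0.892 of the range). Its mir-7b share of the family's reads was 26.376% (gap 0.917), and its mir-7a-1 share 68.763% (gap 0.734). The values come from the right eye, where mir-7b stood at 34.0 CPM, against 3.52 CPM in the left eye.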

How the results depend on the processing

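In 92 recounts under other settings and 62 with a mouse left out, 0 miR-7 rows were called in any comparison. Of 462 recomputed log2 fold changes 33 turned sign, and 12 of 30 fold changes never did. The smallest adjusted p was 0.153. None of the turned values passed the threshold, and the cause was not tested.

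Without TMM factors, uninjected against WT was 0.085 for mir-7a-1 and human gRHO against WT 0.038 for mir-7a-2. Libraries of at least 3% rRNA were all those of uninjected mice 2 and 3, some of mouse gRho and none of the other groups. Without them uninjected mouse 1 alone stands for its group, and rRNA cannot be told apart from the other differences of the mice left out. In that setting uninjected against WT was 0.0090 for mir-7a-1 and 0.35 for mir-7a-2. Against uninjected, mir-7a-2 was -0.50 in human gRHO, -0.57 in mouse gRho and -0.28 in saline. Without both libraries poor in retinal miRNAs, a setting chosen after seeing the data, uninjected against WT was 0.034 for mir-7a-1. There mir-7a-2 was -0.013 in human gRHO and -0.055 in mouse gRho against uninjected, mir-7b was 0.30 for human gRHO against mouse gRho and -0.25 for mouse gRho against saline, and right against left eye was 0.11 for mir-7a-2 and -0.12 for mir-7b.

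Leaving out 1 mouse at a time, mir-7a-1 ran from -0.074 to 0.34 (human gRHO against saline), -0.22 to 0.61 (mouse gRho against WT) and -0.58 to 0.27 (uninjected against WT). mir-7a-2 ran from -0.74 to 0.88 (human gRHO against WT), -0.29 to 0.62 (human gRHO against mouse gRho), -0.68 to 0.18 (human gRHO against saline), -0.015 to 1.39 (human gRHO against uninjected), -0.85 to 0.71 (mouse gRho against WT), -0.16 to 1.22 (mouse gRho against uninjected), -0.50 to 0.11 (right against left eye) and -1.54 to 0.44 (uninjected against WT). mir-7b ran from -0.40 to 2.18 (human gRHO against WT), -0.65 to 0.38 (human gRHO against mouse gRho), -0.028 to 2.71 (mouse gRho against WT), -0.31 to 0.73 (mouse gRho against saline), -0.12 to 0.35 (right against left eye) and -1.39 to 1.16 (uninjected against WT).

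The comparison of eyes is paired by mouse, and without the term for the mouse it was -0.18 for mir-7a-1, -0.053 for mir-7a-2 and 1.03 for mir-7b. Between groups, no paired analysis was possible because replicate numbers follow accession order and pair no samples across groups. Depth limits mir-7a-2 and mir-7b most, with medians of 46 and 30 reads. Saline, with 1 mouse, could not be left out.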
